A study of Homo sapiens with 16 samples.

Results

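The comparison described here sets rRNA-depleted RNA from HMC3 cells labelled METTL3 knockout against the same RNA from wild-type HMC3 cells, with 3 libraries in each group. HMC3 is known as a human microglial cell line, but 9 of 15 microglia and macrophage markers were listed at 0 in all 6 libraries. These 6 libraries are part of a series of 16. The other 10, 5 of each genotype, were made by Smart-seq2 from polyadenylated RNA and enter here only through the authors' deposited table of their comparison. Both groups are given by genotype alone, and no treatment, time point or second allele separates them. How the knockout was made, and whether the knockout cells are 1 clone, is not given in the sources used here. The members of the comparison were the genes with at least 1 TPM (the unit of a gene's share of a library's transcripts, after division by gene length) in at least 3 of the 6 libraries. This rule kept 14789 of 60669 gene identifiers, and 10434 of them reached 1 TPM in all 6 libraries. Just inside the rule were 1590 genes that reached it in exactly 3 libraries, with a median of 3.10 TPM over genes. Just outside were 2299 genes that reached it in 2 libraries, with a median of 1.86 TPM, and 38397 identifiers were listed at 0 in all 6.

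METTL3 is the catalytic subunit of the nuclear enzyme complex that writes N6-methyladenosine (m6A) on RNA. Reader proteins of the YTH family bind the mark, and one known outcome is recruitment of the deadenylation and decapping machinery that degrades the mRNA. Cells that lack the mark are known to accumulate endogenous double-stranded RNA, which RIG-I-like sensors and OAS enzymes detect, and interferon-stimulated genes are the downstream readout of that pathway. Depletion of ribosomal RNA, unlike selection on the poly(A) tail, keeps RNAs without a tail. Such libraries therefore also show small nuclear and nucleolar RNAs, the 7SL RNA of the signal recognition particle, the 7SK RNA that restrains the transcription elongation factor P-TEFb, and the tail-less mRNAs of the replication-dependent histones.

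METTL3 itself was measured first. Its level was 31.2, 31.6 and 25.4 TPM over the wild-type libraries, in the order of their numbers, and 39.2, 40.0 and 42.7 TPM over those with the knockout label. The knockout-labelled values lay above the wild-type values, and once the change of the median gene was subtracted the log2 change was 0.07 (SE 0.19; limma adjusted p = 0.821; two-sided exact permutation p = 0.8, where 0.2 is the smallest that 3 against 2 samples allow). The sign of this change turned under several settings, and it was -0.07 without knockout-labelled library 3, -0.04 without wild-type library 3 and -0.41 after removal of a trend with GC content. METTL3 mRNA thus does not check the knockout label, since an edit that ends the protein need not lower the mRNA, and the groups are called wild type and knockout-labelled below.

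The libraries were shallow and unequal, at 266130 to 487243 recovered reads for the wild type and 512597 to 1267177 for the knockout label. Knockout-labelled libraries 1 and 2 did not differ detectably beyond the sampling noise of their reads (chi-square over 10120 genes of 1.02 per degree of freedom, p = 0.065, against 1.16 to 1.53 for the other pairs within a group) and were counted as 1 sample. With all 6 libraries as separate samples the calls given below as 4810 were 6402. The fits therefore compared 3 wild-type with 2 knockout-labelled samples. Nothing says that the libraries came from separate cultures, so p-values measure only the spread between these samples, which may be technical. Pairs of libraries correlated at 0.83 to 0.91 within a group and at 0.62 to 0.66 between groups on the log2(TPM + 1) scale, across genes, which are not independent replicates. Of 15 microglia and macrophage markers 9 were listed at 0 in all 6 libraries (AIF1, CX3CR1, P2RY12, TMEM119, ITGAM, PTPRC, SPI1, C1QA and TYROBP), and the list summed to 52.5 to 70.5 TPM in the wild type and 68.8 to 95.8 TPM in the knockout label. The 12 pericyte and fibroblast markers summed to 12078 to 14419 and 6017 to 6147 TPM. That sum was mostly COL1A1 in the wild type, and of the 9 markers tested 3 rose, FN1, VIM and THY1, and 4 fell. The 5 epithelial markers summed to 730 to 804 and 334 to 340 TPM. Nearly all of that was KRT18, and only KRT8 and KRT18 passed the filter on low values. In such bulk samples fewer cells of a type and less RNA per cell cannot be told apart.

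The change was wide. Of the 14789 genes tested, 4810 (32.5%) passed a limma adjusted p of 0.05, with 2124 higher (14.4%) and 2686 lower (18.2%) in the knockout label after subtraction of the median change of 0.41. On TPM as deposited, without that subtraction, 3382 genes were higher and 1838 lower. The values of the groups did not overlap for 60.2% of all genes tested. Leaving out knockout-labelled library 3, which leaves 1 knockout-labelled sample and assumes that it varies as the wild type does, brought the calls to 1863 (12.6%), and removal of the GC trend brought them to 1562 higher (10.6%) and 2306 lower (15.7%) of 14669. Among the 8859 genes with at least 10 reads on average 3527 (39.8%) were called. The count for each list below is read against these shares, changes are log2 differences of TPM + 1 relative to the median gene, and adjusted p-values are limma's over all genes tested. On this scale the change of a gene at low TPM is understated.

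Several abundant non-coding RNAs differed widely between the groups, and the sequences of 3 of them, from different classes, are shown first. They were taken from the GENCODE 29 transcripts on GRCh38, 5′ to 3′. 7SK (chr6:52995620-52995950, plus strand) is given by its first 300 of 331 bases, with each GATC, the motif of the stem where the P-TEFb inhibitor HEXIM binds, in capitals. SNORD17 (chr20:17962710-17962946, minus strand) is a box C/D small nucleolar RNA, with box C and box D in capitals. MT-TP (chrM:15956-16023, minus strand) is the mitochondrial tRNA for proline, with its anticodon in capitals.
7SK: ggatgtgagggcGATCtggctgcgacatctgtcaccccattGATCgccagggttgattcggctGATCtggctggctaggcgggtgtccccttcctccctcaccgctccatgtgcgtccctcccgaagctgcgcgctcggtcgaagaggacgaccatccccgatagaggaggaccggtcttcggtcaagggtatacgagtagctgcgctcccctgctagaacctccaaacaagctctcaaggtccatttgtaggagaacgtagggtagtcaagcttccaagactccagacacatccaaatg
SNORD17: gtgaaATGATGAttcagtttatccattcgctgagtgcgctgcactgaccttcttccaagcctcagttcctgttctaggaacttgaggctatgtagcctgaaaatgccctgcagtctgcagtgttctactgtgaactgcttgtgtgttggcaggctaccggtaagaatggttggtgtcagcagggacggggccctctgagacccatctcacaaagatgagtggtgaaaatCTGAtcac
MT-TP: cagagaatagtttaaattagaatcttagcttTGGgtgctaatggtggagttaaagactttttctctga

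Of these 3 RNAs, 7SK was higher and the other two were lower in the knockout label, as were RN7SL1, a source gene of 7SL, and RNU5E-1, a U5 small nuclear RNA. RN7SL1 had 37215, 50047 and 30515 TPM in the wild type and 1513, 1649 and 3197 TPM in the knockout label, each given in the order of the library numbers, as are all such values below. The groups lay far apart, and RN7SL1 fell by 4.51 (SE 0.38; adjusted p = 0.00176). 7SK went the other way, from 40700, 36830 and 37114 TPM to 143833, 146530 and 156688 TPM, a rise of 1.57 (SE 0.28; adjusted p = 0.0129). It was the most abundant RNA of every knockout-labelled library, with 14204, 17708 and 8031 reads. The call on 7SK was lost without knockout-labelled library 3 (adjusted p = 0.721), with no filter on low TPM (0.0988) and at a pseudocount of 0.1 (0.125). SNORD17 fell by 5.91 (SE 0.28; adjusted p = 0.000687), from 15122, 14278 and 16470 TPM to 481, 439 and 245 TPM. RNU5E-1 had 5135, 7848 and 3742 TPM in the wild type and 614, 411 and 915 TPM in the knockout label, and fell by 3.37 (SE 0.39; adjusted p = 0.00387). MT-TP fell by 2.89 (SE 0.16; adjusted p = 0.000944), from 4062, 3500 and 3169 TPM to 493, 926 and 570 TPM. No value of these RNAs overlapped between the groups.

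Summed over whole families, the same RNAs changed the make-up of the libraries. 7SL and its copies took 105637, 129334 and 95765 TPM in wild-type libraries and 6790, 7416 and 10686 TPM in knockout-labelled libraries, a mean 12.4-fold lower. 7SK copies took 41103, 37484 and 37409 TPM against 144303, 147056 and 157364 TPM, a mean 3.92-fold higher. The 2 mitochondrial ribosomal RNAs summed to 15151, 12291 and 16919 TPM in the wild type and to 692, 802 and 798 TPM in the knockout label. Small nucleolar RNAs, which guide modification of ribosomal RNA, summed to 41593, 46332 and 39127 TPM against 12273, 11121 and 10704 TPM. Small nuclear RNAs of the spliceosome went from 18092, 26261 and 16060 TPM to 6153, 6782 and 8626 TPM. Sense intronic transcripts, which lie in the introns of other genes, went from 10491, 9486 and 12350 TPM to 4075, 3746 and 3123 TPM. None of these sums overlapped between the groups, and each had the smallest exact permutation p that the design allows, 0.2. Small Cajal-body RNAs, the guides for small nuclear RNAs, summed to 1421, 2181 and 1586 TPM in the wild type and to 2193, 2452 and 2207 TPM in the knockout label, and so lay slightly higher. A further 76715, 77492 and 89324 TPM in the wild type, and 4917, 5027 and 5063 TPM in the knockout label, belonged to identifiers that GENCODE 29 does not hold. Most of it was ENSG00000277048, singled out after its values were seen, with 66108, 67175 and 77513 TPM against 1294, 865 and 1586 TPM. Because TPM sums to the same total in every library, a fall in one class raises the share of every other class, and absolute amounts cannot be read from these sums.

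**Figure D1:**
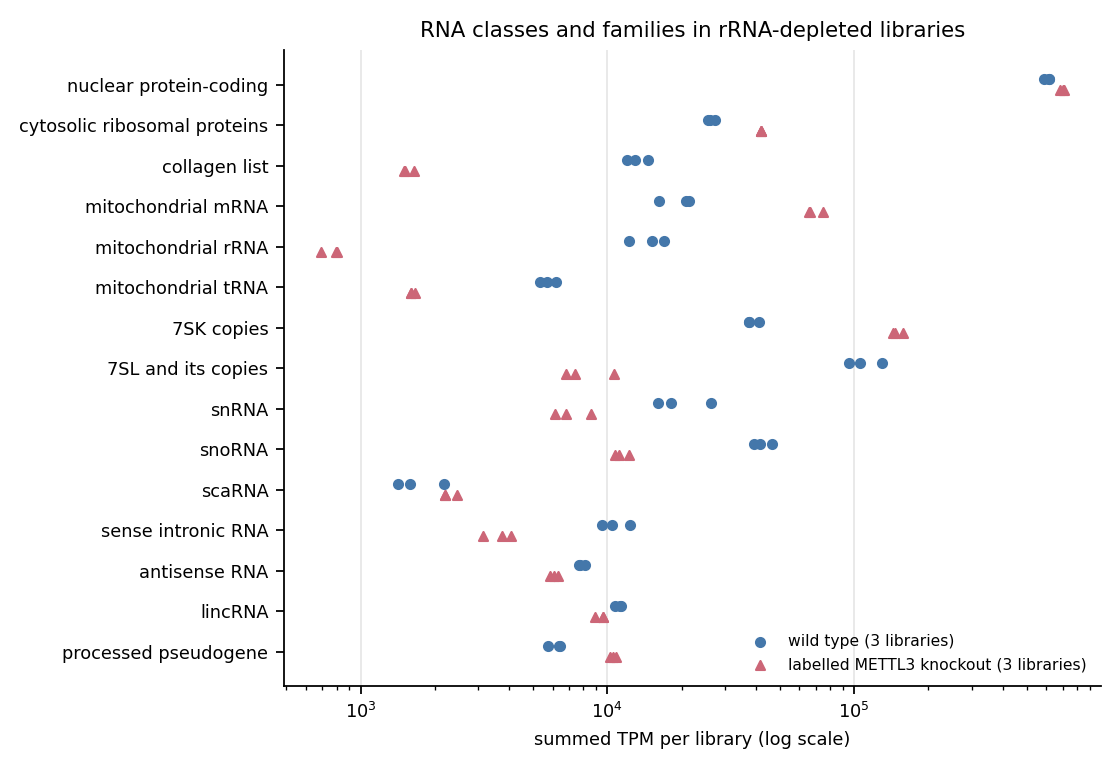
Summed TPM of RNA classes, families and 2 gene lists in each rRNA-depleted library, on a log axis, with circles for the 3 wild-type and triangles for the 3 knockout-labelled libraries. 7SL copies lie at 95765 TPM or more in the wild type and at 10686 TPM or less in the knockout label, and 7SK copies at 41103 TPM or less and 144303 TPM or more.

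Most lower calls, 2070 of 2686, were protein-coding genes, as were 11784 of the 14789 genes tested. Among the short non-coding RNAs, most copies of 7SL and U1 were lower. Of 261 tested copies of 7SL, 148 were lower and 2 higher (96 lower without knockout-labelled library 3), with a median change of -3.21. Of 14 U1 genes and variants, the small nuclear RNA that pairs with the 5′ splice site, 12 were lower and 0 higher (6 lower without that library). Many of these copies hold few reads and are near-identical, so that the counting could split reads between them. Among the snoRNAs with most TPM, SNORA71A fell from 7982, 10812 and 7104 TPM to 325, 245 and 627 TPM (change -4.74, SE 0.38), while SNORA73B fell less, from 3819, 3094 and 3111 TPM to 2382, 2444 and 2849 TPM (change -0.75, SE 0.16). SNORD3A, the U3 RNA of ribosomal RNA processing, fell by 3.98 (SE 0.32). RNU4-2, a U4 RNA, fell by 1.02 (SE 0.13), from 3064, 2936 and 2632 TPM to 1830, 1671 and 2015 TPM. Of 5 U5 genes 3 fell, with changes of -4.18 (SE 0.50) for RNU5B-1, -3.37 for RNU5E-1 and -1.78 (SE 0.51) for RNU5A-1. The other 2, with few reads, lay above 0 and did not pass. U6 genes leaned the other way, with 4 of 9 higher and 1 lower, though 0 of them had 10 reads on average. Over the 35 small nuclear RNAs tested 17 were lower and 6 higher. Over 63 snoRNAs tested, 15 were higher and 13 lower, with a median of 0.83 that became -1.32 when a group at 0 was set to a floor of 3 reads and genes with 3 reads or fewer in every library were left out. For this class the sign of the median therefore rests on genes with few reads.

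Longer classes moved less. Protein-coding genes had 1773 of 11784 higher and 2070 lower, with a median of 0.07. Of 489 lincRNAs 53 were higher and 86 lower (median -0.43; 36 lower without knockout-labelled library 3 and 57 without wild-type library 1), and of 588 antisense RNAs 49 and 73 (median -0.42; 24 lower without knockout-labelled library 3). Of 272 sense intronic transcripts 37 were higher and 82 lower (median -1.27; 43 lower without knockout-labelled library 3). Processed pseudogenes ran the other way, with 117 of 400 higher and 24 lower (10 without knockout-labelled library 3), and a median of 1.29 that was 0.02 with the same floor and just under 0 with limma's voom on recovered reads. Many processed pseudogenes are near copies of their parent mRNAs, and 230 of the 400 had 3 reads or fewer in every library. Few lincRNAs (55 of 489), antisense RNAs (41 of 588) and sense intronic transcripts (12 of 272) had at least 10 reads on average. The lower calls of lincRNAs and antisense RNAs did not exceed the share of 18.2% over all genes. Transcripts under 400 bases had 238 of 640 lower and 81 higher (median -2.18), and longer ones 2418 of 14029 lower and 2031 higher (median 0.02).

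The mitochondrial genome gave opposite directions for its mRNAs and ribosomal RNAs. The human mitochondrial genome is transcribed as long precursors from both strands, and tRNAs are cut out to release the mRNAs and ribosomal RNAs. Of 13 mitochondrial mRNAs, 11 rose and 1 fell, with a median change of 2.29 against 0 for all genes, and 6 rose without knockout-labelled library 3. MT-CO1, a core subunit of complex IV, had 712, 597 and 578 TPM in wild-type and 6471, 6837 and 6822 TPM in knockout-labelled libraries. MT-CO1 rose by 3.01 (SE 0.13; adjusted p = 0.000634). MT-ND4, a complex I subunit, rose by 2.56 (SE 0.19) from 1275, 1021 and 878 TPM to 7660, 7454 and 8956 TPM. MT-CYB of complex III rose by 2.88 (SE 0.14) and MT-ATP6 of ATP synthase by 2.30 (SE 0.22). The smallest rise that passed was that of MT-ND3 at 1.18 (SE 0.28), and MT-ATP8 did not pass, at 0.23 (SE 0.21).

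MT-ND6 was the mitochondrial mRNA that fell. It is the single mRNA encoded on the other (light) strand. Its values were 7663, 8535 and 5759 TPM in the wild type and 2024, 2019 and 2743 TPM in the knockout label (change -2.03, SE 0.23; adjusted p = 0.00379). In the wild type MT-ND6 was the most abundant of the 13, and in the knockout label MT-ND5 was, at 9323, 9308 and 9958 TPM. The libraries were made with a directional kit, but whether counting used strand is not given in the sources used here. Both ribosomal RNAs fell in step, with changes of -4.57 (SE 0.16) for MT-RNR1 and -4.71 (SE 0.17) for MT-RNR2, and MT-RNR2 went from 9650, 7627 and 10499 TPM to 439, 437 and 493 TPM. Ribosomal RNA is what the library method sets out to remove, and how completely it was removed in each library was not tested. In the authors' deposited table of the poly(A) libraries MT-RNR2 had a log2 fold change of 0.65, MT-CO1 0.52 and MT-ND6 0.44. Of 19 nuclear genes for mitochondrial RNA processing 6 rose and 3 fell (0 rose without knockout-labelled library 3 and 3 without wild-type library 3).

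**Figure D2:**
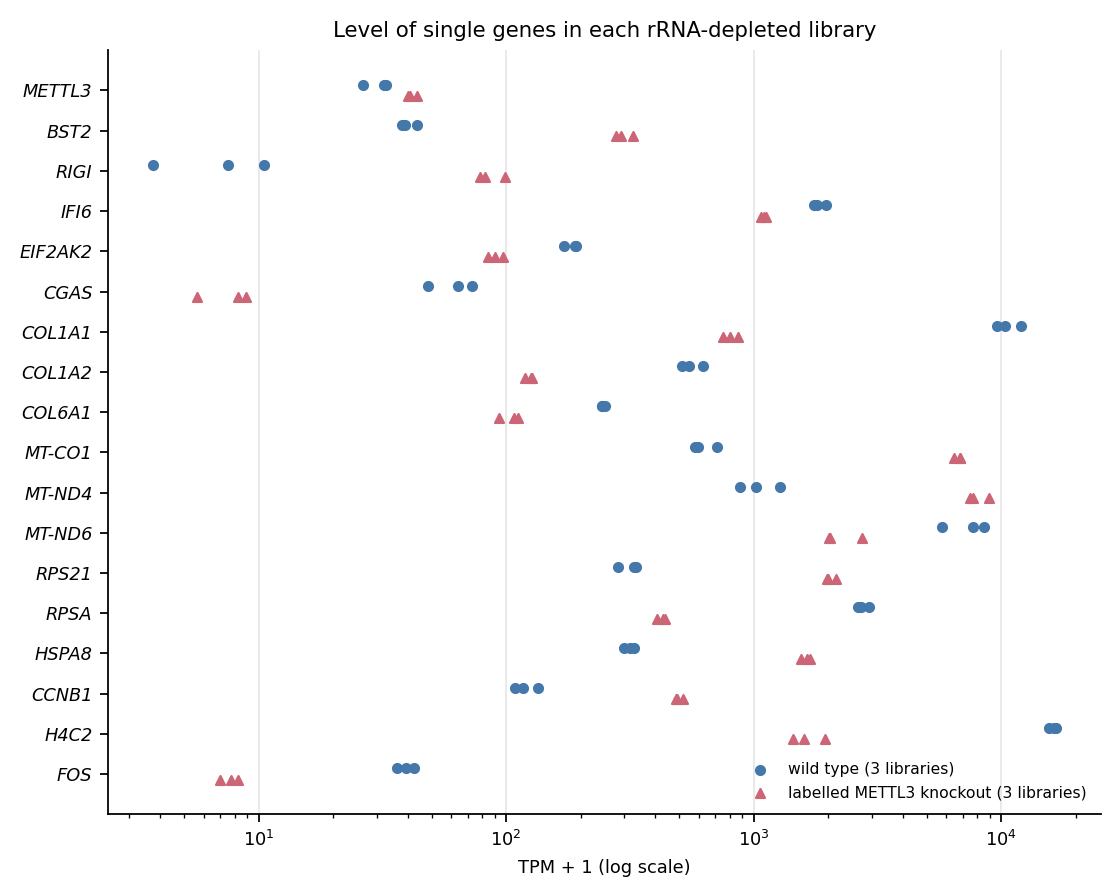
TPM + 1 of 18 genes in each rRNA-depleted library on a log axis, with circles for wild-type and triangles for knockout-labelled libraries. BST2, RIGI, MT-CO1 and MT-ND4 lie higher in all 3 knockout-labelled libraries, and IFI6, EIF2AK2, CGAS, the 3 collagens, MT-ND6, RPSA, H4C2 and FOS lie lower in all 3.

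Interferon effectors, the antiviral products of interferon-stimulated genes, lay mostly on the higher side. Of 42 interferon effectors tested, 20 rose (against 14.4% of all genes) and 2 fell, with a median change of 1.48, and the median was 1.10 after removal of the GC trend. The count that rose was 6 without knockout-labelled library 3. BST2, tetherin, which holds budding virions at the cell surface, had 38.0, 37.0 and 42.8 TPM in wild-type and 291, 277 and 323 TPM in knockout-labelled libraries. No values overlapped, and BST2 rose by 2.51 (SE 0.13; adjusted p = 0.000821). IFITM3, which blocks fusion of viruses in endosomes, rose by 1.505 (SE 0.12), from 131, 146 and 151 TPM to 492, 524 and 575 TPM. DTX3L, a ubiquitin ligase, rose by 1.43 (SE 0.18), IFIT3, an RNA-binding antiviral protein, by 1.83 (SE 0.29), and SP100, a nuclear-body protein, by 2.74 (SE 0.33). SAMD9, an antiviral factor, had 2.07, 1.51 and 1.75 TPM in the wild type and 35.2, 42.0 and 33.9 TPM in the knockout label (change 3.34, SE 0.37). These 6 effectors had 1 to 34 reads in each wild-type library and 26 to 258 in each knockout-labelled one.

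The 2 effectors that fell were IFI6 and PML. IFI6, an interferon-induced membrane protein, had 1752, 1807 and 1966 TPM in the wild type and 1104, 1118 and 1068 TPM in the knockout label. It fell by 1.17 (SE 0.10; adjusted p = 0.00199), while the authors' deposited table of the poly(A) libraries gave IFI6 a log2 fold change of 2.18. PML, the scaffold of nuclear bodies, fell by 1.29 (SE 0.19), with 0.97 in the authors' deposited table. ISG15, a ubiquitin-like modifier, was at 466, 571 and 705 TPM against 505, 532 and 638 TPM (change -0.41, SE 0.20; adjusted p = 0.19), values that overlap between the groups. Over the 42 effectors the authors' deposited table had a median log2 fold change of 1.57 and 41 of 42 values above 0. In that comparison as a whole, 10.2% of 12498 genes with an adjusted p were higher and 11.0% lower in the authors' deposited table.

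Upstream of the effectors, some sensors rose and some adaptors and receptors fell. Of 8 sensors tested, 4 rose, 1 fell and 3 did not pass (1 rose without knockout-labelled library 3), and DHX58, TLR3 and ZBP1 did not pass the filter on low values. RIGI, the sensor of RNA ends, had 6.51, 9.51 and 2.75 TPM in the wild type and 80.8, 97.5 and 77.1 TPM in the knockout label, and rose by 3.24 (SE 0.49; adjusted p = 0.00772). ADAR, which edits double-stranded RNA, had 48.3, 32.2 and 52.3 TPM against 199, 202 and 196 TPM (change 1.76, SE 0.23). OAS1 and OAS2, synthetases of the RNase L activator, each had 1 read over the 3 wild-type libraries and at least 28 in every knockout-labelled library. The ratio of their levels was 69.8 for OAS1 (counting interval 12.3 to 2775) and 85.6 for OAS2 (15.2 to 3400). Outside this sensor list, IFI16, a nuclear DNA sensor, was listed at 0 in the wild type. It had 41.2, 45.5 and 34.2 TPM in the knockout label, at least 8.76-fold higher. The OAS1 call was lost without knockout-labelled library 3 (adjusted p = 0.0631).

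EIF2AK2, the kinase PKR, which halts translation on binding double-stranded RNA, was the member of the sensor list that fell. It had 188, 170 and 191 TPM against 89.1, 95.8 and 83.5 TPM (change -1.46, SE 0.12; adjusted p = 0.00151), where the authors' deposited table gave EIF2AK2 1.26. Of 9 adaptors and kinases 1 rose and 4 fell (2 fell without any 1 of knockout-labelled libraries 2 and 3 and wild-type libraries 2 and 3). CGAS, the sensor of cytosolic DNA listed with them, fell from 63.1, 47.3 and 72.0 TPM to 7.26, 7.91 and 4.66 TPM (change -3.54, SE 0.30). MAVS, the adaptor of RIG-I on mitochondria, fell by 1.76 (SE 0.11) from 218, 202 and 232 TPM to 86.0, 86.1 and 83.4 TPM, without overlap. Among 13 receptor, JAK-STAT and IRF genes 2 rose and 3 fell, with a median of -0.003. These counts lie near the shares over all genes, 14.4% higher and 18.2% lower. Both chains of the type I interferon receptor fell, with changes of -1.79 (SE 0.25) for IFNAR1 and -2.88 (SE 0.30) for IFNAR2, and IRF3, the transcription factor that induces interferon beta, fell by 1.55 (SE 0.14). In the authors' deposited table MAVS, IFNAR1, IFNAR2, IRF3 and CGAS had adjusted p-values of 0.285 or more.

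The promoters of 3 effectors are printed because they carry the response element of this pathway and their genes moved in different directions. Each is the 250 bases before the RefSeq gene start on GRCh38.p14, with every match to the core GAAANNGAAA on either strand in capitals (TTTCNNTTTC on the minus strand, and matches may overlap). BST2 (chr19:17405631-17405880, minus strand) holds 2 overlapping matches, IFIT3 (chr10:89327747-89327996, plus strand) 2 and IFI6 (chr1:27672193-27672442, minus strand) 3.
BST2: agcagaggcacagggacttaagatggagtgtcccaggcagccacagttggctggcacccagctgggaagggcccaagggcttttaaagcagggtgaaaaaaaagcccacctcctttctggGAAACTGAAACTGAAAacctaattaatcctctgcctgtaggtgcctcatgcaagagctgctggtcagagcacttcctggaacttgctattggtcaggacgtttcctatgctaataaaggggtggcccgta
IFIT3: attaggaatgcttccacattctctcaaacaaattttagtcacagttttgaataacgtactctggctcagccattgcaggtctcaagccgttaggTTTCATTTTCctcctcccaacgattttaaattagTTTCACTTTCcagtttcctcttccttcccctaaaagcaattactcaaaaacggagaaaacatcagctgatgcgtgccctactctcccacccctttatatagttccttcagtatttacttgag
IFI6: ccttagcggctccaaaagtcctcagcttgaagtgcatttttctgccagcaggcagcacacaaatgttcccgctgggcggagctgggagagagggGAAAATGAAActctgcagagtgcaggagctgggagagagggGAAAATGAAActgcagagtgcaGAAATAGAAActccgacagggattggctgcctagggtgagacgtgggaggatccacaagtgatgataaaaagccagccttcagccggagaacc

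In windows of 250 bases before to 50 after the start, the core was found for 26 of 34 tested effectors with a RefSeq promoter (76.5%), for 2.68% of 10199 tested genes and for 3.65% of all 27305 promoters in the table. Of the 26 effectors with the core 13 rose and 1 fell, with a median change of 1.48. Of the 8 without it 6 rose and 0 fell, with a median of 2.46. Outside both interferon lists, 245 of 10144 tested genes held the core and had a median change of 0.27, against 0.05 for the rest. Those medians were 0.06 and 0.04 after removal of the GC trend. A match is a run of letters in this window, not a measured binding site.

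Antigen presentation genes, which interferon also induces, were divided. Of 20 tested 5 rose and 6 fell (3 and 1 without knockout-labelled library 3). B2M, the light chain of MHC class I, had 26.8, 20.4 and 24.6 TPM in the wild type and 212, 214 and 169 TPM in the knockout label, and rose by 2.53 (SE 0.19; adjusted p = 0.00138). The values of B2M did not overlap between the groups. Over the 20 genes the median change was 0.07, and the lowest change was -1.49. The authors' deposited table gave these 20 genes a median log2 fold change of 0.67, with 15 above 0.

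**Figure D3:**
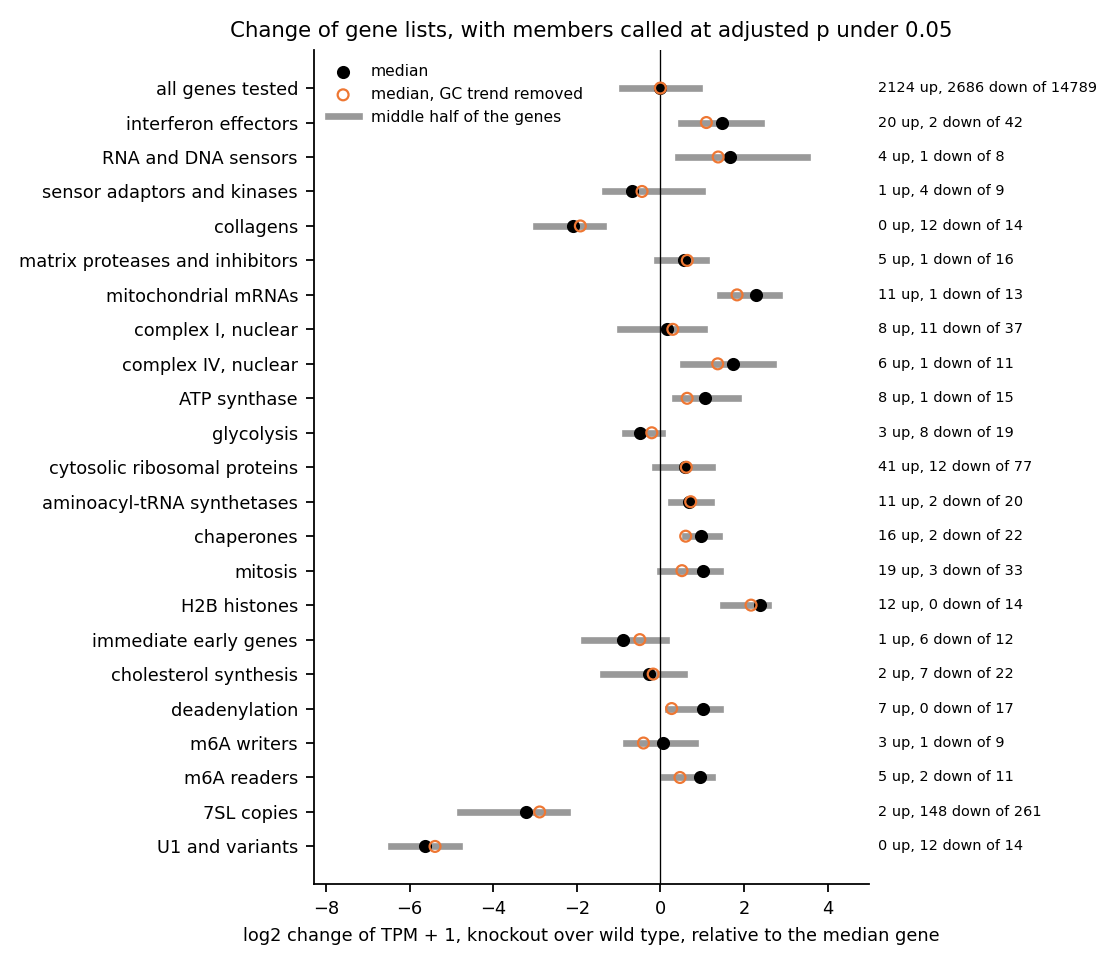
Change of gene lists in the rRNA-depleted libraries: the filled point is the median over tested members, the grey bar runs from the lower to the upper quartile, and the open circle is the median after removal of the GC trend. Counts of members called are printed at the right, for example 20 up and 2 down of 42 interferon effectors and 0 up and 12 down of 14 collagens.

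Collagen genes fell. Of 14 collagens tested, 12 fell (against 18.2% of all genes) and 0 rose, with a median change of -2.10, which was -1.92 after removal of the GC trend, and 12 fell when any 1 of the 6 libraries was left out. COL1A1, the main chain of type I collagen, had 10400, 9612 and 11995 TPM in the wild type and 749, 799 and 865 TPM in the knockout label. With 9120 to 19673 reads in wild-type libraries it was measured far more deeply than most genes, and it fell by 4.11 (SE 0.15; adjusted p = 0.000587). Its partner chain COL1A2 had 545, 511 and 621 TPM against 125, 126 and 118 TPM (change -2.60, SE 0.12). COL4A1, a basement membrane chain, fell by 3.37 (SE 0.11), and the changes were -3.44 (SE 0.20) for COL7A1 of anchoring fibrils and -3.11 (SE 0.13) for COL18A1, the source of endostatin. COL6A1 and COL6A2 fell less, with changes of -1.62 (SE 0.10) and -1.12 (SE 0.14), and for COL6A2 the change was -0.13 after removal of the GC trend and did not pass. COL12A1 and COL16A1 were the 2 that did not pass, at -0.24 (SE 0.27) and -0.20 (SE 0.82), and COL3A1 and COL6A3 did not pass the filter on low values.

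For the collagens the poly(A) libraries gave other values. Over the 14 genes the authors' deposited table had a median log2 fold change of -0.16, with 5 above 0. COL1A1 was at -0.79 in the authors' deposited table, COL1A2 at 0.30, COL6A1 at 0.92 and COL6A2 at 1.32. The collagen list summed to 12960, 12061 and 14657 TPM in the rRNA-depleted wild-type libraries and to 1504, 1516 and 1642 TPM in the knockout-labelled ones.

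Other matrix genes did not follow the collagens. Of 16 proteases and inhibitors 5 rose and 1 fell (2 rose without knockout-labelled library 3), and of 23 glycoproteins and proteoglycans 2 rose and 5 fell (3 fell without it). SERPINE2, a thrombin inhibitor, rose by 3.03 (SE 0.21), from 11.2, 16.3 and 14.8 TPM to 168, 159 and 159 TPM, and the authors' deposited table gave SERPINE2 2.99. LOX, which cross-links collagen, rose by 2.35 (SE 0.18), fibronectin (FN1) by 0.98 (SE 0.09) and versican (VCAN) by 2.34 (SE 0.35). Agrin (AGRN), a basement membrane proteoglycan, fell from 490, 421 and 512 TPM to 137, 142 and 157 TPM (change -2.08, SE 0.13). SPARC, a collagen-binding glycoprotein, fell by 0.81 (SE 0.10).

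Genes of the translation apparatus were more often higher than lower. Ribosomal protein mRNAs of the cytosolic ribosome summed to 27266, 25683 and 25996 TPM in the wild type and 41918, 41952 and 42118 TPM in the knockout label, a mean 1.60-fold higher. Of 45 large-subunit genes 25 rose and 4 fell (6 and 1 without knockout-labelled library 3), and of 32 small-subunit genes 16 rose and 8 fell (10 rose without it). RPS21 had 332, 283 and 328 TPM against 2140, 1997 and 1976 TPM (change 2.27, SE 0.11; adjusted p = 0.000759). RPL32 rose by 2.91 (SE 0.15) and RPS4X by 2.97 (SE 0.13). The subunits did not move as 1 block. RPSA, the laminin-receptor protein of the small subunit, fell from 2935, 2645 and 2709 TPM to 438, 427 and 407 TPM (change -3.13, SE 0.10), and RPS2 fell by 1.84 (SE 0.13). Ribosomal protein genes have many processed pseudogenes, so reads can be split. In the authors' deposited table the 77 ribosomal protein genes had a median log2 fold change of -0.36, with 5 above 0.

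Factors that work with the ribosome gave a like picture. Of 35 initiation and elongation factors 17 rose and 5 fell (9 and 3 without knockout-labelled library 3). EIF3E, a subunit of initiation factor eIF3, rose by 2.56 (SE 0.22), while EIF3B of the same complex fell by 1.85 (SE 0.22), from 207, 170 and 275 TPM to 84.2, 81.6 and 73.2 TPM. PABPC1, the poly(A)-binding protein, had 331, 296 and 273 TPM against 1276, 1314 and 1140 TPM (change 1.61, SE 0.12). Of 20 cytosolic aminoacyl-tRNA synthetases, which charge tRNAs, 11 rose and 2 fell (1 rose without knockout-labelled library 3), with WARS1, an interferon-inducible one, at 2.16 (SE 0.23). Of 22 chaperones 16 rose and 2 fell (6 rose without that library), with a median of 0.96. HSPA8, the constitutive heat shock protein 70, had 317, 327 and 298 TPM against 1685, 1645 and 1549 TPM (change 1.94, SE 0.10; adjusted p = 0.000759). The 2 that fell were the stress-inducible forms HSPA1B at -1.63 (SE 0.16) and HSPA1A at -1.02 (SE 0.19).

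Among energy genes, the nuclear subunits of the respiratory chain are given by complex, and differences between complexes were not tested. Complex IV had 6 of 11 higher and 1 lower (2 higher without knockout-labelled library 3), with a median of 1.74, and ATP synthase 8 of 15 higher and 1 lower (1 higher without that library, 5 without wild-type library 3 and 3 with the GC trend removed), with a median of 1.06. Complex III had 5 of 10 higher and 2 lower (0 and 0 without knockout-labelled library 3), with a median of 0.70. Complex I had 8 of 37 higher and 11 lower (2 and 4 without knockout-labelled library 3), with a median of 0.15. COX7C, a small complex IV subunit, had 35.5, 31.2 and 42.1 TPM in the wild type and 289, 339 and 256 TPM in the knockout label, and rose by 2.53 (SE 0.18; adjusted p = 0.00125). ATP5F1B, the catalytic beta subunit, rose by 1.57 (SE 0.12), and ATP5F1D, the delta subunit, fell by 1.53 (SE 0.12). Of the 73 nuclear genes of the chain, 72 had an adjusted p in the authors' deposited table, with a median log2 fold change of -0.40 and 5 above 0.

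Glycolysis leaned the other way, with 8 of 19 genes lower and 3 higher (5 lower without knockout-labelled library 3) and a median of -0.48. TPI1, triose phosphate isomerase, fell from 1784, 1744 and 1723 TPM to 816, 821 and 971 TPM (change -1.38, SE 0.11), and ENO1, an enolase, fell by 1.09 (SE 0.10). GAPDH, between them in the pathway, rose by 1.26 (SE 0.10), from 1198, 1146 and 1129 TPM to 3531, 3625 and 3815 TPM. LDHB, a lactate dehydrogenase subunit, rose by 1.57 (SE 0.11). Of 22 cholesterol synthesis genes 7 fell and 2 rose, and CYP51A1, the sterol demethylase, fell by 5.44 (SE 0.24), from 86.9, 78.7 and 104 TPM to 3.29, 0.672 and 1.59 TPM. Of 14 tested NRF2 targets and ferritins 5 rose and 0 fell (2 rose without knockout-labelled library 3). TXN, thioredoxin, rose by 3.07 (SE 0.23) and FTL, the ferritin light chain, by 1.13 (SE 0.16).

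Mitosis genes rose more often than they fell. Of 33 mitosis genes 19 rose and 3 fell (10 and 1 without knockout-labelled library 3), with a median of 1.02, and 11 rose and 5 fell after removal of the GC trend. CCNB1, cyclin B1, had 116, 134 and 108 TPM in the wild type and 489, 518 and 485 TPM in the knockout label, and rose by 1.64 (SE 0.13; adjusted p = 0.00142). CCNB2, cyclin B2, rose by 3.23 (SE 0.34), TTK, a spindle checkpoint kinase, by 3.48 (SE 0.37), and TOP2A, a topoisomerase, by 1.73 (SE 0.18). PLK1, the polo-like kinase, fell from 292, 220 and 254 TPM to 113, 124 and 132 TPM (change -1.42, SE 0.15), and CCNA2, cyclin A2, fell by 0.91 (SE 0.23). Of 38 DNA replication genes 6 rose and 11 fell (0 rose without knockout-labelled library 3), with a median of 0.05. GINS1, part of the replicative helicase, fell from 533, 432 and 459 TPM to 49.4, 44.4 and 34.9 TPM (change -3.93, SE 0.17).

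Replication-dependent histone mRNAs end in a stem-loop in place of a poly(A) tail, so these libraries measure them where the poly(A) libraries measure only tailed forms. Of 14 H2B genes 12 rose and 0 fell, with a median of 2.39 (4 rose without knockout-labelled library 3). H2BC21 had 18.8, 22.9 and 26.5 TPM against 219, 230 and 294 TPM (change 3.05, SE 0.21; adjusted p = 0.00121), and H2BC5 rose by 2.42 (SE 0.18). H2A genes were divided, with 5 of 13 higher and 5 lower (1 and 1 without that library), and so were H4 genes, with 5 of 12 higher and 4 lower (1 and 2). The most abundant histone mRNA of the wild type fell: H4C2 had 16268, 16586 and 15609 TPM there and 1446, 1595 and 1931 TPM in the knockout label (change -3.65, SE 0.16). Of 9 H3 genes 5 rose and 1 fell, with a median of 0.99 (1 rose without that library). Of 4 H1 linker histones 1 rose and 2 fell, and H1-4, the larger fall, fell by 2.37 (SE 0.11), from 6868, 7056 and 6976 TPM to 1803, 1764 and 1800 TPM. Histone genes of 1 class are near-identical, and counts of single genes are uncertain.

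The m6A machinery showed no common direction. Of 9 writer genes 3 rose and 1 fell (0 rose without knockout-labelled library 3), and of 11 readers 5 rose and 2 fell (0 rose without it). Among the writers VIRMA, the scaffold of the complex, rose by 1.47 (SE 0.24) and CBLL1, its ubiquitin-ligase subunit HAKAI, by 2.50 (SE 0.50). METTL14, the partner of METTL3, had 16.5, 16.6 and 23.6 TPM against 16.1, 11.97 and 10.4 TPM and did not pass (change -0.998, SE 0.31; adjusted p = 0.0614). METTL16, a separate methyltransferase that acts on U6 RNA and MAT2A, fell by 1.54 (SE 0.21). The cytoplasmic readers YTHDF1 and YTHDF3 rose by 0.96 (SE 0.20) and 1.37 (SE 0.24), and the nuclear reader YTHDC1 fell by 0.77 (SE 0.15), from 62.4, 53.0 and 52.8 TPM to 39.1, 49.9 and 42.2 TPM. The eraser ALKBH5 fell by 0.44 (SE 0.11) relative to the median gene, and FTO did not pass. The fall of ALKBH5 was about as large as the median change that had been subtracted, so it rests on that subtraction. Neither eraser was called lower without wild-type library 1, without wild-type library 2 or after removal of the GC trend.

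In mRNA decay, which readers can recruit, 7 of 17 deadenylation genes rose and 0 fell, with a median of 1.02 that was 0.27 after removal of the GC trend. This count was 1 without knockout-labelled library 3, 2 without wild-type library 1 and 4 without wild-type library 3. CNOT1, the scaffold of the CCR4-NOT deadenylase, had 28.7, 20.03 and 24.8 TPM against 138, 140 and 111 TPM and rose by 1.90 (SE 0.21; adjusted p = 0.00354). Of 10 decapping and 5′ decay genes 4 rose (1 without knockout-labelled library 3), among them the helicase DDX6 at 1.62 (SE 0.15) and the nuclear exonuclease XRN2 at 2.65 (SE 0.43). The exosome, which degrades RNA from the 3′ end and trims small RNAs, had 4 of 12 genes lower and 1 higher (2 lower without that library). EXOSC3, one of its cap proteins, fell from 141, 164 and 143 TPM to 35.5, 33.5 and 29.9 TPM (change -2.59, SE 0.14).

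Immediate early genes, transcription factors induced within minutes of a stimulus, had 6 of 12 lower and 1 higher (3 lower without knockout-labelled library 3). FOS fell by 2.80 (SE 0.23), from 41.6, 38.4 and 35.1 TPM to 7.25, 6.77 and 5.98 TPM. JUN fell by 1.28 (SE 0.09) and IER2 fell by 2.18 (SE 0.25), while FOSL1, the FOS relative FRA1, rose by 1.36 (SE 0.11), from 184, 170 and 152 TPM to 583, 570 and 578 TPM.

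The protein partners of the small RNAs that changed most were also looked at. Of 16 genes of the 7SK particle and P-TEFb 4 rose and 4 fell (0 rose without knockout-labelled library 3). CCNT1, cyclin T1 of P-TEFb, rose by 2.01 (SE 0.35), and its kinase CDK9 fell by 0.99 (SE 0.13), from 113, 114 and 106 TPM to 69.3, 67.6 and 79.6 TPM. HEXIM1, the inhibitor that 7SK tethers, did not pass (change -0.49, SE 0.18; adjusted p = 0.0906), nor did LARP7, the protein that holds the 3′ end of 7SK (1.63, SE 0.48; adjusted p = 0.0527). Of 27 genes of RNA polymerase III, which transcribes 7SK, 7SL and U6, 3 rose and 5 fell (0 and 3 without that library), with a median of 0.02. Of 35 proteins of snoRNPs and small RNPs 11 rose and 5 fell (0 and 2 without that library, and 6 rose without wild-type library 3). The 15 Integrator subunits, which process small nuclear RNA ends, had 3 higher and 3 lower (0 and 1 without knockout-labelled library 3, 1 and 1 without wild-type library 3, and 1 lower without wild-type library 1).

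Genes outside these lists were named by size of change among 3367 that passed, did not overlap and held at least 10 reads in each library of the higher group. The protein-coding genes that rose most included CDKN3, a phosphatase of cell-cycle kinases (change 5.06, SE 1.44), TMED7, a cargo receptor (4.73, SE 0.76), LYSMD3 (4.35, SE 0.41), and FUBP1, a single-strand DNA-binding regulator of MYC (3.96, SE 0.52). The wild-type level of these genes rests on few reads. LYSMD3 was listed at 0 in all 3 wild-type libraries and was at least 5.01-fold higher, and CDKN3, TMED7 and FUBP1 lost their calls without knockout-labelled library 3. TMED7 also lost its call at a pseudocount of 0.1, and CDKN3 did so there, with no filter, with the GC trend removed and without wild-type library 2 or 3. Among the genes that fell most, QPRT, an enzyme of NAD synthesis, had 62.2, 48.3 and 67.4 TPM in the wild type, was listed at 0 in 2 knockout-labelled libraries and had 1 read in the other. The authors' deposited table gave QPRT a log2 fold change of -5.16. STEEP1, which helps STING leave the endoplasmic reticulum, fell by 4.13 (SE 0.30), from 428, 273 and 534 TPM to 29.9, 31.8 and 27.5 TPM. LAMTOR4, a subunit of the lysosomal Ragulator complex, had 724, 722 and 705 TPM against 51.9, 72.2 and 60.0 TPM and fell by 3.94 (SE 0.09; adjusted p = 0.000236).

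The long non-coding RNAs that fell most included AC092903.2, listed at 0 in the knockout label and at least 13.0-fold lower there, AC022211.3 (change -5.02, SE 0.25) and AL035461.2 (-5.01, SE 0.16), which had 757, 691 and 743 TPM against 32.0, 36.6 and 24.6 TPM. MIR100HG, the host of the miR-100 cluster, rose by 2.29 (SE 0.35), from 9.95, 5.82 and 6.73 TPM to 74.4, 58.5 and 42.6 TPM. MIR493HG rose by 2.16 (SE 0.23). MIR100HG lost its call without knockout-labelled library 3 (adjusted p = 0.0652). Of 13 known nuclear lncRNAs 3 rose and 3 fell (1 fell without that library). MALAT1, a component of nuclear speckles, rose by 1.23 (SE 0.14), from 816, 898 and 760 TPM to 2857, 2831 and 2327 TPM. NEAT1, the scaffold of paraspeckles, did not pass (-0.05, SE 0.19), and OIP5-AS1, also known as cyrano, fell by 2.15 (SE 0.22).

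Across protein-coding genes with at least 10 reads, the change fell steadily with the GC content of the transcript. In the decile of genes with 30.2% to 38.4% GC the median change was 0.95, with 269 genes higher and 47 lower. In the decile with 61.4% to 73.9% GC it was -0.85, with 28 higher and 433 lower. The Spearman correlation over 8603 genes was -0.46, and over 8600 of them -0.21 for the log2 fold changes of the authors' deposited table. Genes are not independent points, and GC content goes with length, exon number and base motifs. The density of GGACT, a frequent form of the m6A motif, had a correlation of -0.17 with the change and -0.01 once the GC trend was removed. TCAGG, the same bases in reverse order, had -0.12 and -0.04. The part of this trend in the results for single lists was not tested beyond the medians given with it removed.

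**Figure D4:**
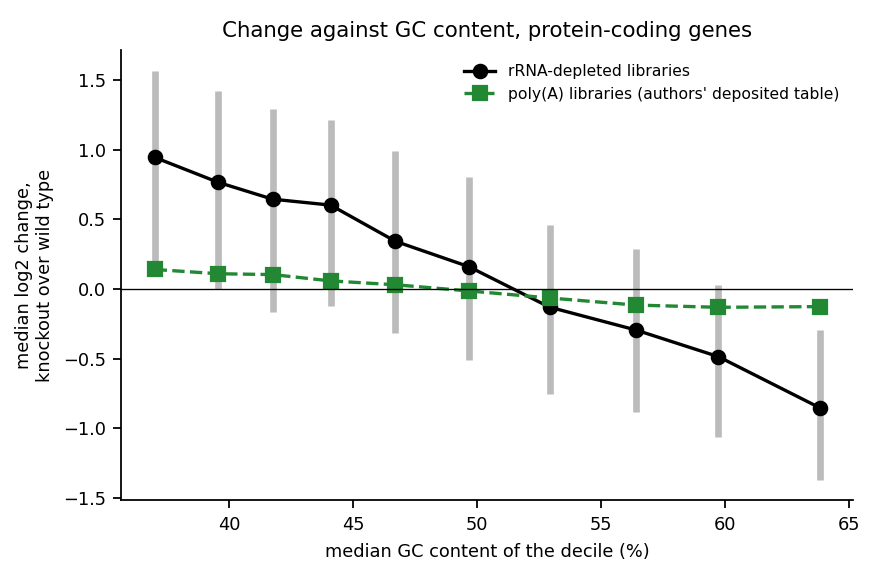
Median log2 change in deciles of protein-coding genes by GC content: black points and line for the rRNA-depleted libraries, with grey bars from the lower to the upper quartile, and green squares for the authors' deposited table of the poly(A) libraries. The rRNA-depleted medians run from 0.95 to -0.85 and those of the authors' deposited table from 0.14 to -0.13.

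Position along the chromosomes was examined last, in 8268 windows of 15 neighbouring genes with the GC trend removed. Window medians ran from -1.38 to 1.43, with percentiles 1 and 99 at -0.76 and 0.87. The lowest window lay at the end of the long arm of chromosome 18, from PIGN to SLC66A2 (chr18:61905255-79951664, GRCh38), where 13 of 15 genes were below 0. This stretch was chosen because its median was the lowest, so its own median is a description. From PIGN to the last tested gene, ADNP2, 17 genes had a median of -1.12 with the GC trend removed, and 6 of them were called lower and 0 higher. The other 83 tested genes of chromosome 18 had a median of 0.08. The rule of the lowest median uses no poly(A) values. Windows were also ranked by their poly(A) medians, however, and earlier results of these data were known, so the poly(A) values are a description too. In the authors' deposited table the 17 genes had a median log2 fold change of -0.97, all 17 lay below 0, and 9 of 15 with an adjusted p were lower (against 11.0% of genes) and 0 higher. The median over the rest of chromosome 18 was 0.10 in the authors' deposited table.

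Of the 17 genes, 11 did not pass, among them RTTN, ZNF407, TMX3 and KDSR, whose changes before removal of the GC trend lay above 0 at 0.83, 0.46, 0.34 and 0.10. The 3 genes given next, chosen after their values were seen, are among the larger falls. VPS4B, which disassembles ESCRT-III, had 31.2, 26.4 and 33.3 TPM in wild-type and 14.8, 10.2 and 13.5 TPM in knockout-labelled libraries (change -1.57; adjusted p = 0.00692). DSEL, an epimerase of dermatan sulfate, had 33.4, 39.1 and 49.6 TPM against 11.6, 11.8 and 8.13 TPM (change -2.35; adjusted p = 0.00428). CYB5A, cytochrome b5, had 15.97, 7.78 and 17.4 TPM against 3.599, 4.41 and 2.77 TPM (change -2.10; adjusted p = 0.0277), and -1.54 in the authors' deposited table. None of these values overlapped between the groups. PMAIP1 (NOXA), the last gene before the stretch, had 19.01, 18.5 and 18.8 TPM against 22.5, 30.6 and 28.9 TPM and did not pass (change 0.13; adjusted p = 0.67). Whether the number of gene copies differs between the 2 cell populations was not measured.

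**Figure D5:**
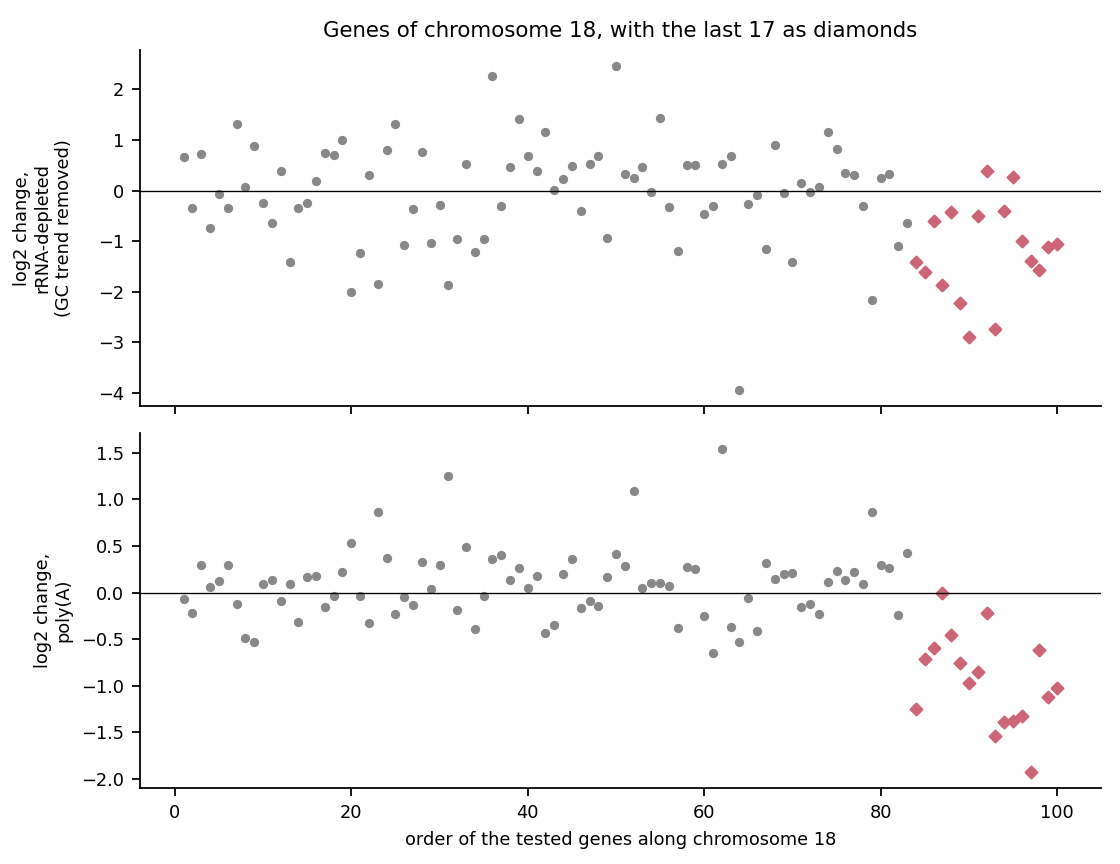
Log2 change of the 100 tested genes of chromosome 18 in their order along it, above in the rRNA-depleted libraries with the GC trend removed and below in the authors' deposited table of the poly(A) libraries. Diamonds mark the last 17 genes, of which 15 lie below 0 in the upper panel and 17 in the lower.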

How the data were processed

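RNA of wild-type and METTL3 knockout-labelled HMC3 cells was extracted with Trizol, depleted of ribosomal RNA and made into libraries with a directional kit, per the labels' protocols. The submitters' processing notes name Trimmomatic, STAR, DESeq2 and hg38. Versions, the gene annotation and the use of strand in counting are not given in the sources used here. The authors deposited TPM per gene for the rRNA-depleted libraries. The table the authors deposited for polyadenylated RNA holds, per gene, a mean normalized count (a signal with no unit), a log2 fold change and its error, a test statistic (a score) and p-values. Its sign was taken as knockout over wild type, which the table does not state.

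TPM times the GENCODE 29 exon length gave whole multiples of 1 step per library, within 0.02, for 90.9% of values above 0, and these steps gave the reads quoted. Genes at 1 TPM or more in at least 3 of 6 libraries were tested with limma 3.58.1 (R 4.3.3, trended empirical Bayes) on log2(TPM + 1), after subtracting the median change and averaging the knockout-labelled libraries 1 and 2. P-values are two-sided and Benjamini-Hochberg adjusted over all genes, with a threshold of 0.05. GC trends were removed per library by a smooth fit. A group at 0 was given a floor of 3 reads. Intervals and floors cover counting error only. On simulated data over 14672 genes, 50 of 200 genes changed by 2 log2 units were recovered, and 44 of 84 with at least 50 reads. A further 29 genes that had not been changed were also called, 0 of them with at least 10 reads on average. In this simulation false calls made up a larger share of all calls than the threshold of 0.05 sets. All of them fell on genes with fewer than 10 reads, so calls on such genes are uncertain. Most calls on transcripts under 400 bases are of this kind. Beyond list members, the text names the genes of largest change in each RNA class that passed the test, did not overlap, had a mean of at least 10 TPM and at least 10 reads in every library of the higher group, and the most abundant of each class. The members and lists were chosen with earlier results of these data known. Alternatives covered scaling, pseudocount, filter, library weights, blocks and left-out libraries. Some genes and sequences are not reported here.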

Additional observations from a re-analysis of the deposited data

How the results depend on the processing

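The count of 4810 changed genes was 7382 with limma's voom on recovered reads and 2069 at an adjusted p of 0.01. Leaving out 1 library gave 1863 to 4707 calls, the lowest without knockout-labelled library 3. The remaining settings stayed within 1.5 times, among them 6402 with all 6 libraries apart. Deposited TPM without centring gave 5220 calls, of which 64.8% were higher. The change of METTL3 turned negative with the GC trend removed (-0.41), at 10 reads or more (-0.021), at a pseudocount of 0.1 (-0.039), and over left-out libraries it ran from -0.073 to 0.18. Same-numbered libraries of the 2 groups did not deviate together (correlations 0.02, -0.02 and 0.01), so numbers do not pair them. With the replicate block the count was 5474 and the METTL3 change 0.03. Of 74 list and class medians 47 kept their sign under all 20 alternatives. Without centring, the medians of zinc finger, cholesterol synthesis, matrix glycoprotein, collagen-processing, H2A, mitochondrial ribosomal protein and snoRNA host genes turned positive. So did those of receptor, JAK-STAT and IRF genes, of actin and contractile genes, and of box H/ACA snoRNAs. The medians of collagens, glycolysis and immediate early genes did not. Of 44 named genes 28 kept their call under every alternative, 16 lost it under some and 0 reversed. At this depth a gene near 1 TPM rests on few reads, and its failure to pass does not show that it did not differ.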

Other observations

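Several gene groups that the report does not describe were also read. Of 11 tubulin genes 5 rose and 1 fell (2 rose without knockout-labelled library 3), and TUBB had 746, 789 and 704 TPM in wild-type and 2314, 2382 and 2405 TPM in knockout-labelled libraries (limma change 1.26). Keratins of simple epithelia fell, KRT18 from 729, 740 and 688 TPM to 327, 322 and 321 TPM. Vimentin (VIM), the intermediate filament of mesenchymal cells, rose from 521, 463 and 446 TPM to 2306, 2157 and 2253 TPM. It is 1 of 9 tested pericyte and fibroblast markers, of which 3 rose and 4 fell, COL1A1 among those that fell. Of 427 zinc finger genes 22 rose and 70 fell (5 and 29 without knockout-labelled library 3). Of 78 mitochondrial ribosomal protein genes 9 rose and 22 fell (1 and 7 without that library, and 10, 14 and 9 fell without wild-type libraries 1, 2 and 3). For the zinc finger genes neither count exceeded the share over all genes, 14.4% higher and 18.2% lower. The signal recognition particle proteins SRP68, SRP72 and SRP19 rose by 0.62, 2.07 and 1.40, while SRP54, SRP9 and SRP14 did not pass.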
